A study of Mus musculus with 17 samples.

Results

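The 7 genes described here are the translation factor and mRNA-binding protein genes Pabpc1, Eif4a2, Eif4a1, Ybx1, Eef1a1, Eef2 and Tpt1, out of 49585 genes quantified in mouse plasma cell-free RNA (cfRNA). They were chosen by name, and 3 of them, Eif4a2, Pabpc1 and Ybx1, were picked because their levels differed between groups. The group differences of these 3 genes are therefore given as descriptions without a p-value, while the other 4 genes are given with the test across all genes. Counts of called genes include the 3 picked genes, and nothing is read from their calls. Translation of an mRNA begins when initiation factors load the ribosome onto its capped end, where the RNA helicase eIF4A unwinds structure ahead of the scanning subunit. The poly(A)-binding protein PABPC1 holds the opposite end of the mRNA and protects it, and YB-1, the product of Ybx1, coats mRNA and modulates its use. Elongation factors then deliver aminoacyl-tRNAs and move the ribosome, and the mRNAs of the elongation factors and of Tpt1 are themselves translated from a pyrimidine-rich start that couples them to growth signals. Such mRNAs are abundant in most cells, including the maturing red cells and platelets that give rise to much of the RNA found in plasma.

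Plasma cfRNA was compared between wild type C57BL/6J mice of 13 weeks of age in 3 groups of the MHU-1 mission. MG mice lived in microgravity on the International Space Station (n = 6 libraries), AG mice lived on the station in a centrifuge that supplied artificial 1-G (n = 6), and GC mice stayed on the ground (n = 5). MG against AG isolates gravity within the flight, MG against GC compares the whole flight with the ground, and AG against GC compares flight under 1-G with the ground. Blood was taken from the inferior vena cava, cell debris was spun out of the plasma, and a kit for small RNA was used because the RNA was degraded. The total counts per library ranged from 115515 to 277682 in AG, from 113746 to 223189 in MG and from 84657 to 195103 in GC. A few dominant genes above 5% of the counts of any library, namely Tmem38b, Rn18s-rs5, Polr2m and Lars2, left 10182 to 28846 reads for all other genes in AG, 19093 to 44415 in MG and 19483 to 40468 in GC. The 7 genes together held 178 to 463 reads per library in AG, 310 to 851 in MG and 356 to 745 in GC. Of all counts this was 0.120% to 0.185% in AG, 0.252% to 0.563% in MG and 0.315% to 0.421% in GC, so that AG lay below both other groups. Outside those dominant genes it was 1.38% to 1.75% of the reads in AG, 1.16% to 2.11% in MG and 1.505% to 2.27% in GC, and these ranges overlapped. GC replicate 4 and MG replicate 4 stood apart for several of the genes, and fold changes that turned or moved most without them are given both ways. In bulk plasma, fewer cells of a type releasing RNA and less RNA released per cell cannot be told apart.

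Of the 7 genes, 4 contain genes for small nucleolar RNAs (snoRNAs), short RNAs that are cut from introns and guide the chemical modification of ribosomal RNA and other RNAs. The sequences below are shown because libraries for small RNA can carry such RNAs, and a count per gene does not tell whether a read came from the mRNA or from a snoRNA inside it. Eif4a2 (chr16:23107444-23114136, + strand, GRCm38, GENCODE M21) contains 5 snoRNA genes, Eif4a1 (chr11:69666936-69672423, - strand) contains 3, and Eef2 (chr10:81176631-81182498, + strand) and Tpt1 (chr14:75845093-75848525, + strand) contain 1 each. Pabpc1 (chr15:36595661-36609668, - strand), Ybx1 (chr4:119277981-119294604, - strand) and Eef1a1 (chr9:78478449-78489151, - strand) contain none, and all 7 are protein-coding genes. The capitals in Snord2 and Snord37 mark the box C core and box D, and those in Gm24201, Gm24029 and Snora31 mark the ACA box near the 3′ end. Each is written 5′ to 3′ on the strand of the host gene as the annotated transcripts give it.
Snord2 (chr16:23108953-23109021, in Eif4a2): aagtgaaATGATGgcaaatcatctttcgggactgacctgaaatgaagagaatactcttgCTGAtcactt
Gm24201 (chr16:23110383-23110507, in Eif4a2): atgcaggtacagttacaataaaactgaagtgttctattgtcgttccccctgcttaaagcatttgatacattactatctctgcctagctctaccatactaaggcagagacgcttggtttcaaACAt
Gm24029 (chr11:69667834-69667976, in Eif4a1): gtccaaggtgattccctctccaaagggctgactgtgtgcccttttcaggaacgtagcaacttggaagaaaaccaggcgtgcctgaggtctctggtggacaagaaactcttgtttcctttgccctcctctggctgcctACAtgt
Snord37 (chr10:81178950-81179013, in Eef2): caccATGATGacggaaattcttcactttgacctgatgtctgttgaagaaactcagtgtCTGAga
Snora31 (chr14:75847905-75848034, in Tpt1): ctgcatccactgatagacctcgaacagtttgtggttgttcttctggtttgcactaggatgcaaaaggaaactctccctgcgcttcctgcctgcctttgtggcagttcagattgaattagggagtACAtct

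Snord37 and Snora31 lay in introns of their hosts, whereas Snord2, Gm24201, Snora81 and Gm26447 in Eif4a2 and Gm24029 and Gm22988 in Eif4a1 lay within an exon of at least 1 annotated transcript. The fifth gene in Eif4a2, Gm24616, overlapped an exon, and the third in Eif4a1, Gm25835, was intronic. Each of the 10 snoRNA genes was listed at 0 reads in all 17 libraries. The count column was 0 for all 1454 annotated snoRNA genes in the files, of which 331 lie inside a protein-coding gene on the same strand, yet 27 of them had an RPKM above 0 in at least 1 library. The deposited columns thus disagree for some genes, and a count of 0 carries no information about the snoRNAs themselves. Eif4a2 and Eef1a1 also contain a predicted miRNA gene each, Gm49346 and Gm26377, and the latter was listed at 0 reads.

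All 7 genes had reads in every library, and their levels per length spanned about an order of magnitude. Over the 17 libraries the median level on the RPKM scale, reads adjusted for gene length and mapped reads, was 11.2 for Eif4a2, 4.57 for Eef1a1, 4.07 for Tpt1, 3.12 for Pabpc1, 1.46 for Ybx1, 1.16 for Eef2 and 1.11 for Eif4a1. Eif4a2 lay above Tpt1 in 17 of 17 libraries and above Eef1a1 in 14. The neighbours Eef1a1 and Tpt1, with Eef1a1 higher in 12 of 17 libraries, and Tpt1 and Pabpc1, with Tpt1 higher in 12, were not ordered alike in all libraries. The last 3 genes were not separable, since Ybx1 was above Eef2 in 10 of 17 libraries and above Eif4a1 in 10, and Eef2 was above Eif4a1 in 10. By reads, Eif4a2 had 4176 over all libraries, rank 20 of all genes, followed by Pabpc1 with 1136, Eef1a1 with 818, Tpt1 with 634, Eif4a1 with 364, Eef2 with 246 and Ybx1 with 237. Ybx1 and Eef2 thus rested on 6 to 23 and 6 to 27 reads per library, and Eif4a1 on 2 to 51, so that counting error alone is large for these genes.

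The make-up of the reads within the 7 genes is given as a description, since its main parts, Pabpc1 and Eif4a2, were picked for their group differences. Pabpc1 supplied 16.8% to 38.8% of them in AG (median 31.9%), 3.91% to 19.7% in MG (median 10.8%) and 8.59% to 18.3% in GC (median 13.5%). Eif4a2 supplied 26.8% to 55.9% in AG (median 31.8%), 28.4% to 72.4% in MG (median 54.8%) and 50.0% to 71.4% in GC (median 57.3%). The ranges of AG overlapped those of MG and GC for both genes. In 4 of the 6 AG libraries Pabpc1 had at least as many reads as Eif4a2, while in every MG and GC library Eif4a2 outnumbered Pabpc1 in reads not adjusted for gene length. Tpt1 kept a similar share, with medians of 9.57% in AG, 9.18% in MG and 7.94% in GC.

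**Figure D1:**
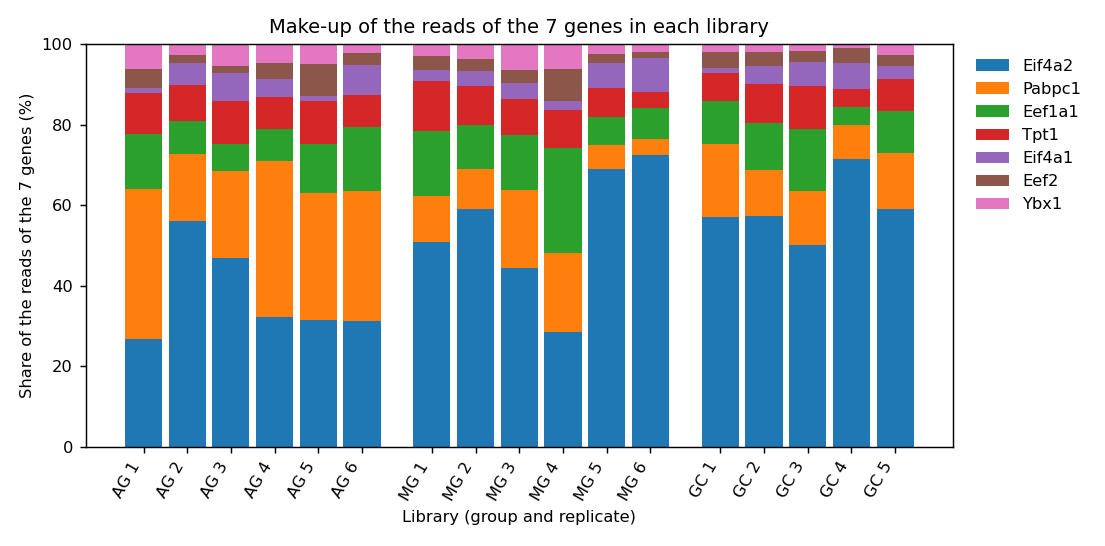
Share of the reads of the 7 genes (%, vertical axis) that each gene supplied in each of the 17 libraries (horizontal axis, by group and replicate), as stacked bars. Pabpc1 (orange) has a median share of 31.9% in AG against 10.8% in MG and 13.5% in GC, and MG replicate 4 has the lowest share of Eif4a2 (blue) outside AG, 28.4%.

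Pabpc1, which encodes the main cytoplasmic poly(A)-binding protein, was highest in AG. Its level was compared as TMM-normalized CPM, in which the reads of a gene are divided by the counts of all tested genes in a library after these have been scaled between libraries by the trimmed mean of M-values (TMM). It ranged from 352 to 1109 in AG with a median of 839, and from 177 to 502 in MG with a median of 281. The GC libraries read 474, 256, 366, 642 and 330 for replicates 1 to 5. All MG libraries lay below 4 of the 6 AG libraries, and only AG replicates 2 and 3, at 352 and 456, fell into the range of MG and GC. The mean was 747 ± 286 for AG (SD, n = 6), 324 ± 142 for MG (SD, n = 6) and 414 ± 150 for GC (SD, n = 5). The fitted log2 fold change was -1.20 (SE 0.40) for MG against AG, -0.35 (SE 0.41) for MG against GC and 0.85 (SE 0.42) for AG against GC, without a test because the gene was picked for this pattern. Without the TMM scaling the difference of MG against AG was -0.07 and that of AG against GC -0.10, while the median over all tested genes moved from 0.17 to 1.27 and from -0.21 to -1.14. Over the fits with other scalings, filters, tests or designs that kept every mouse of both groups, the value minus the median of all genes in that fit lay between -1.40 and -0.80 for MG against AG and between 0.49 and 1.13 for AG against GC. With limma on log2(RPKM + 1) the fold change was -0.54 for MG against AG and -0.010 for AG against GC. With single libraries left out, the quasi-likelihood fit ran from -1.36 to -1.05 and from 0.71 to 1.04 for these pairs, and for MG against GC it was -0.15 without GC replicate 4 and -0.50 without MG replicate 4.

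A ratio of 2 genes inside a library does not depend on the scaling between libraries. For every read of Eef1a1 there were 2.02 to 4.89 reads of Pabpc1 in AG (median 2.64), 0.512 to 1.40 in MG (median 0.802) and 0.881 to 2 in GC (median 1.34). The AG libraries all lay above those of MG and of GC in this ratio, whereas MG and GC overlapped. The separation depended on the gene in the denominator, since relative to Tpt1 the groups overlapped. AG replicate 2 had 78 reads of Pabpc1 beside 41 of Tpt1, while MG replicate 3 had 66 beside 31 and GC replicate 1 had 65 beside 24. Of the 271 other tested genes, Pabpc1 included, 3.69% had reads relative to Eef1a1 that were lower in MG than in AG without overlap, and 1.48% had reads higher in AG than in GC without overlap, and nothing is read from these shares since Pabpc1 was picked on this contrast. The reads of Eif4a2 per read of Pabpc1 ranged from 0.723 to 3.32 in AG (median 0.982), from 1.44 to 18.5 in MG (median 5.14) and from 3.12 to 8.31 in GC (median 4.24). The red cell markers, like Pabpc1, had their highest median in AG, while their order between MG and GC was the opposite of that of Pabpc1. All 11 of the 12 listed markers that are in the files had reads, and their summed level ranged from 9802 to 25115 TMM-normalized CPM in AG (median 15763), from 2848 to 18973 in MG (median 8849) and from 6206 to 18741 in GC (median 8267). Their part in the difference of Pabpc1 was not tested.

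**Figure D2:**
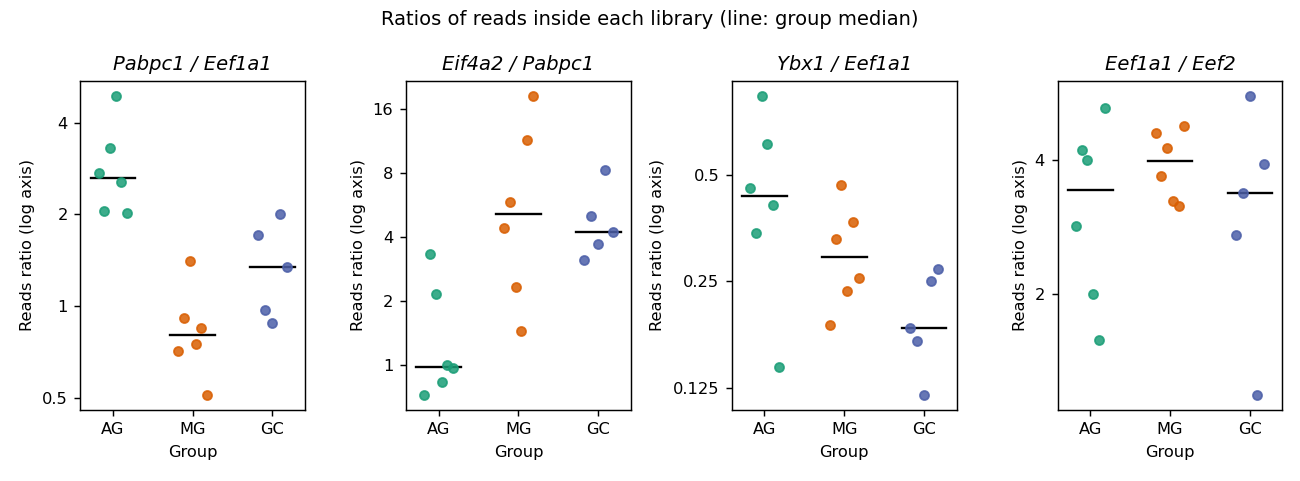
Ratios of reads inside each library (vertical axes, log scale) for 4 pairs of genes, by group; each point is 1 library and the line is the group median. For Pabpc1 over Eef1a1 the lowest AG library, at 2.02, lies above the highest MG library, at 1.40, and the highest GC library, at 2.

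Ybx1, the gene of the mRNA-coating cold-shock protein YB-1, was lowest in GC. Its level ranged from 58.7 to 149 TMM-normalized CPM in AG with a median of 108, and from 67.5 to 167 in MG with a median of 100.4. The GC libraries read 51.1, 44.5, 49.7, 80.3 and 66.8 for replicates 1 to 5. AG and MG covered much the same range, 3 GC libraries lay below all AG and MG libraries, and GC replicates 4 and 5 lay among them. The mean was 107 ± 35.04 for AG (SD, n = 6), 113 ± 39.6 for MG (SD, n = 6) and 58.5 ± 14.8 for GC (SD, n = 5). The fitted log2 fold change was 0.95 (SE 0.40) for MG against GC, 0.87 (SE 0.40) for AG against GC and 0.08 (SE 0.37) for MG against AG, again as a description. The GC values rest on 7, 12, 8, 8 and 16 reads. Without TMM scaling the value of AG against GC became -0.04, and over those same fits that kept every mouse the value minus the median of all genes lay between 0.53 and 1.12. With limma on log2(RPKM + 1) the fold change of Ybx1 fell to 0.30 for MG against GC and 0.03 for AG against GC, where the median of all tested genes was -0.22 and -0.50. For MG against AG it was -0.03 without MG replicate 4. The reads of Ybx1 per read of Eef1a1 overlapped between all groups, at 0.143 to 0.833 in AG, 0.188 to 0.468 in MG and 0.119 to 0.271 in GC.

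Eif4a2 encodes 1 of the 2 helicases of the cap-binding complex, the form that is also linked to microRNA-mediated silencing. Its level was lowest in AG, from 638 to 1169 TMM-normalized CPM with a median of 931, and ranged from 714 to 3266 in MG with a median of 1480. The GC libraries read 1481, 1294, 1354, 5337 and 1398 for replicates 1 to 5. Every AG library lay below every GC library, MG spread over both ranges, and on this scale GC replicate 4 was far above the other 4 GC libraries. Per total count of the library, without TMM scaling, it read 2727 CPM beside 1704 to 2398 in the other GC libraries, and its RPKM of 18.3 lay inside their range of 10.4 to 23.8. Among all tested genes 0.735% were lower in AG than in GC without overlap, which is no support because the gene was picked on this contrast. The mean was 901 ± 216 for AG (SD, n = 6), 1745 ± 952 for MG (SD, n = 6) and 2173 ± 1770 for GC (SD, n = 5). The fitted log2 fold change was -1.27 (SE 0.45) for AG against GC, 0.95 (SE 0.44) for MG against AG and -0.31 (SE 0.45) for MG against GC. Without GC replicate 4 these values became -0.62, 0.95 and 0.33, so the size of the first and the sign of the last depended on that library. Without TMM scaling they were -1.90, 1.94 and 0.03. Over the fits that kept every mouse, the value minus the median of all genes lay between -1.19 and -0.76 for AG against GC. For MG against AG it lay between 0.65 and 0.86. With single libraries left out, the fold change of MG against AG ran from 0.68 to 1.10. The platelet markers, 10 of 10 with reads, ranged from 281 to 2854 in summed TMM-normalized CPM in AG (median 2280), from 1212 to 3407 in MG (median 2748) and from 1405 to 3780 in GC (median 3637), and their part in the difference of Eif4a2 was not tested.

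Eif4a1, the other cytoplasmic helicase of this complex and the more abundant form in dividing cells, was the most variable of the 7 genes. Its level ranged from 26.2 to 248 TMM-normalized CPM in AG (median 102), from 56.8 to 377 in MG (median 113) and from 36.5 to 482 in GC (median 100.1). The ranges of the 3 groups overlapped, with the highest value of each group in GC replicate 4, MG replicate 6 and AG replicate 6. None of the differences passed the quasi-likelihood test of edgeR with Benjamini-Hochberg adjustment, at a log2 fold change of 0.48 (SE 0.62, adjusted p = 0.789) for MG against AG, -0.11 (SE 0.63, adjusted p = 0.994) for MG against GC and -0.59 (SE 0.65, adjusted p = 0.720) for AG against GC. Single libraries moved these values widely. The first was 0.016 without MG replicate 6 and 0.82 without AG replicate 6, the second 0.72 without GC replicate 4 and 0.04 without MG replicate 4, and the last 0.25 without GC replicate 4. Reads of Eif4a2 outnumbered those of Eif4a1 in every library, by 4.32 to 28 reads to 1 in AG, 8.66 to 19.7 in MG and 8.38 to 40.6 in GC, with medians of 8.83, 12.03 and 12.9.

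**Figure D3:**
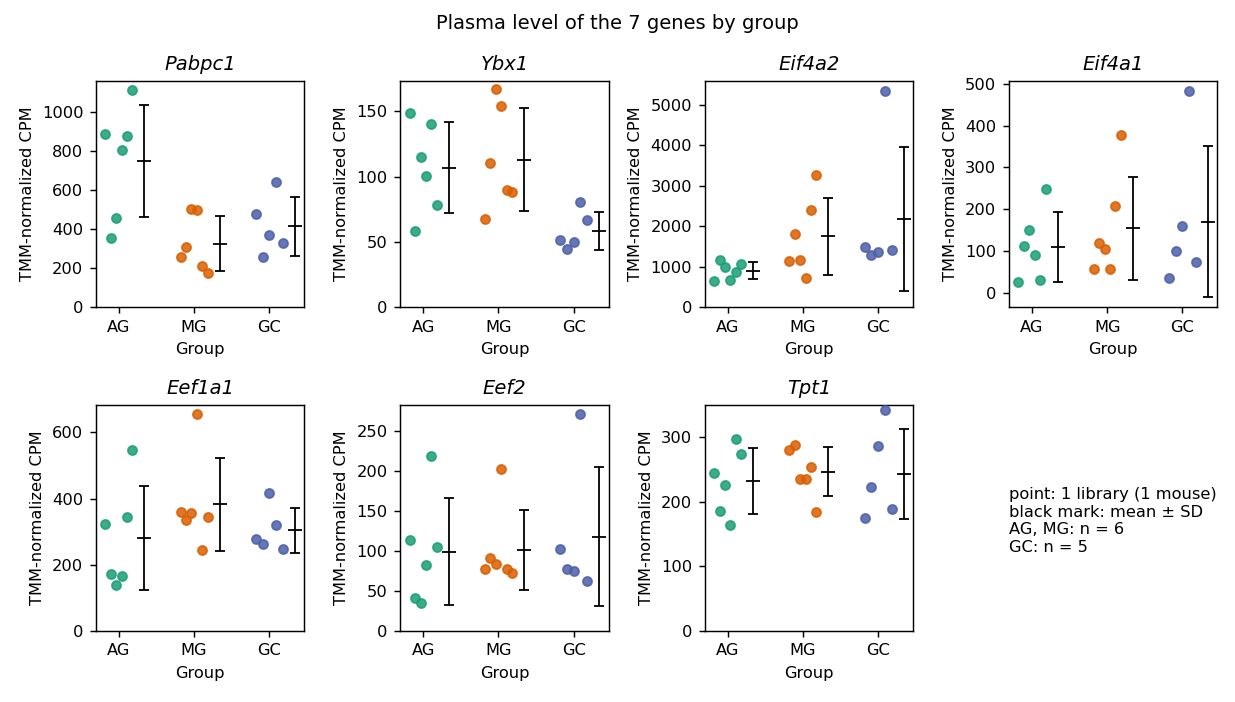
Level of each of the 7 genes (TMM-normalized CPM, linear vertical axes) by group; points are libraries and black marks are the mean ± SD (n = 6 for AG and MG, n = 5 for GC). Pabpc1 is highest in AG, Ybx1 lowest in GC and Eif4a2 lowest in AG, and GC replicate 4 is the highest GC point for Eif4a2 (5337), Eif4a1 (482) and Eef2 (271).

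Eef1a1, which encodes the factor that brings aminoacyl-tRNAs to the ribosome, did not pass the test in any pair. Its level ranged from 138 to 548 TMM-normalized CPM in AG (median 248) and from 246 to 657 in MG (median 351), and the GC libraries read 277, 263, 416, 321 and 246. The MG values clustered between 336 and 358 in 4 of the 6 libraries, with MG replicate 4 highest at 657, and all 3 groups overlapped. The log2 fold change was 0.46 (SE 0.39) for MG against AG, with an adjusted p of 0.678 in the quasi-likelihood test of edgeR and a range of 0.022 to 0.773 over the other scalings, filters, tests and designs tried with every mouse of both groups kept. The low end of that range came from the fit without TMM scaling, in which the fold change was 1.56 and the median of all tested genes 1.27, and the gene was not called under any other of these settings. With single libraries left out the adjusted p ran from 0.406 to 0.900 and the fold change from 0.23, without MG replicate 4, to 0.76, without AG replicate 6. For MG against GC the value was 0.33 (SE 0.41, adjusted p = 0.994), or 0.11 without MG replicate 4, and for AG against GC -0.13 (SE 0.41, adjusted p = 0.893).

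Eef2, the translocase that moves the ribosome along the mRNA and a known target of inhibition under energy stress, rested on few reads and did not pass the test in any pair. Its level ranged from 34.6 to 219 TMM-normalized CPM in AG (median 93.3), from 72.2 to 203 in MG (median 80.8) and from 62.6 to 271 in GC (median 77.8). Within each group 1 library was highest by a wide margin, AG replicate 5, MG replicate 4 and GC replicate 4, and the other libraries overlapped between the groups. The log2 fold changes were 0.10 (SE 0.49, adjusted p = 0.985) for MG against AG, -0.19 (SE 0.50, adjusted p = 0.994) for MG against GC and -0.28 (SE 0.51, adjusted p = 0.835) for AG against GC in the quasi-likelihood test of edgeR. Without MG replicate 4 the first became -0.21, and without GC replicate 4 the other two became 0.34 and 0.23.

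The ratio of the 2 elongation factors was tested directly, since neither was picked for its group difference. The reads of Eef1a1 per read of Eef2 ranged from 1.57 to 5.25 in AG (median 3.42), from 3.16 to 4.78 in MG (median 3.98) and from 1.19 to 5.58 in GC (median 3.38). MG lay inside the ranges of AG and GC and was the narrowest of the 3. The log2 ratio differed by 0.37 between MG and AG (two-sided exact permutation test, p = 0.236, adjusted p = 0.565 over 3 pairs), by 0.38 between MG and GC (exact p = 0.377, adjusted p = 0.565) and by 0.0027 between AG and GC (exact p = 0.978, adjusted p = 0.978). With single libraries left out, the difference ran from 0.19, without AG replicate 5, to 0.53 for MG against AG, from 0.05, without GC replicate 4, to 0.60 for MG against GC, and from -0.32 to 0.22 for AG against GC. The smallest p these designs allow is 0.00216 for 6 against 6 libraries and 0.00433 for 6 against 5.

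Tpt1, which encodes the translationally controlled tumour protein, a growth-related protein, was the most even of the 7 genes after TMM scaling. Its level ranged from 164 to 297 TMM-normalized CPM in AG (median 235), from 185 to 288 in MG (median 245) and from 175 to 341 in GC (median 222). The means were 232 ± 51.0 (SD, n = 6), 246 ± 37.5 (SD, n = 6) and 242 ± 69.8 (SD, n = 5), and all 3 groups overlapped over most of their range. The log2 fold changes were 0.10 (SE 0.33, adjusted p = 0.976) for MG against AG, 0.03 (SE 0.35, adjusted p = 0.994) for MG against GC and -0.07 (SE 0.35, adjusted p = 0.914) for AG against GC in the quasi-likelihood test of edgeR, the last being 0.08 without GC replicate 4. Without TMM scaling the log2 fold change of Tpt1 was 1.26 for MG against AG (quasi-likelihood adjusted p = 0.051) and -0.98 for AG against GC. The medians of all tested genes were then 1.27 and -1.14. The spread between libraries of a group, as the SD of log2 TMM-normalized CPM around the group means, was 0.31 for Tpt1, the lowest of the 272 tested genes. It was 0.41 for Ybx1, 0.54 for Eef1a1, 0.58 for Pabpc1, 0.70 for Eif4a2, 0.72 for Eef2 and 1.09 for Eif4a1, against a median of 0.85 over the tested genes, so that 6 of the 7 genes lay below the median and Eif4a1 above it.

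At an adjusted p under 0.05 in the quasi-likelihood test of edgeR, 0 of the 7 genes were called in each of the 3 pairs, where 0% of all 272 tested genes were called for MG against AG, 0% for MG against GC and 1.47% for AG against GC. At an unadjusted p under 0.05, with or without the fold change over 1.5 that the study also required, the counts were 2 of 7 for MG against AG (13.2% of all tested genes), 1 of 7 for MG against GC (4.41%) and 2 of 7 for AG against GC (11.8%). These were Pabpc1 and Eif4a2, Ybx1, and Eif4a2 and Ybx1, respectively, all picked genes, so that the counts follow from the choice, and 0 of the 4 other genes passed in any pair. At an adjusted p under 0.05, DESeq2 and edgeR's exact test also called 0 of these 4 genes in any pair. The median log2 fold change of the 7 genes was 0.10 for MG against AG, -0.11 for MG against GC and -0.13 for AG against GC, beside 0.17, -0.0034 and -0.21 over all tested genes. The comparisons share their groups pairwise, and the values of a gene in the 3 pairs are not independent of each other.

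**Figure D4:**
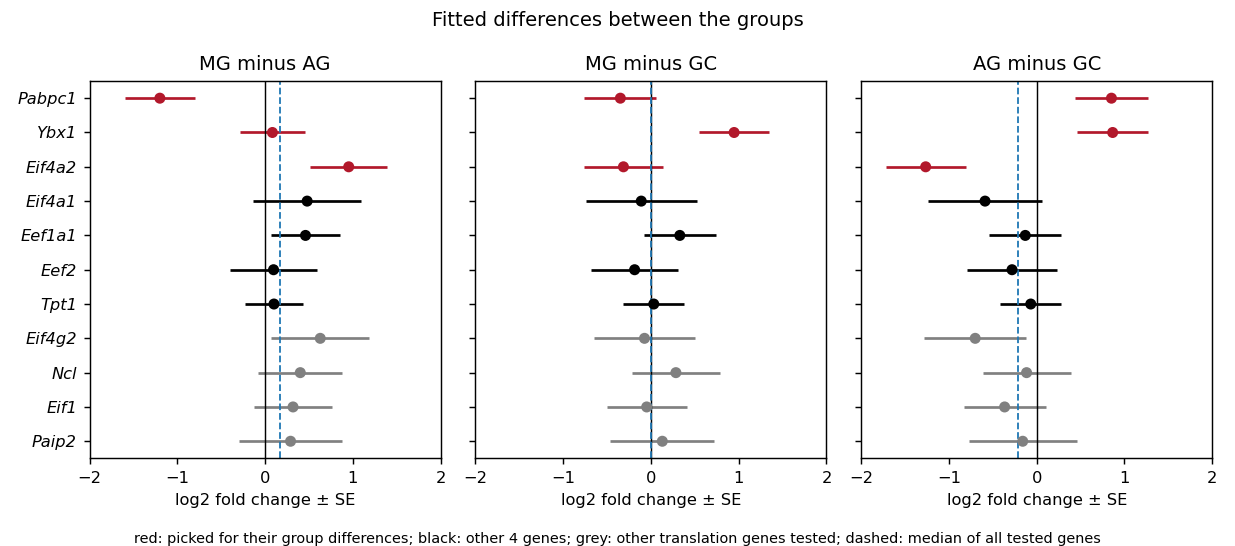
Fitted log2 fold change ± SE (horizontal axes) of the 7 genes and of the 4 other tested translation genes for MG minus AG, MG minus GC and AG minus GC; the dashed line is the median of all tested genes. Pabpc1 sits at -1.20 in the first panel and Eif4a2 at -1.27 in the third, while the SE bars of Eef2 and Tpt1 span 0 in all panels.

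A wider list of 118 other translation genes, all of them in the files, held 4546 reads over the 17 libraries, with at least 1 read for 106 of them and at least 5 reads for 87. The 42 initiation factors held 2001 reads, of which Eif4g2 alone held 1081, and the 9 elongation and termination factors held 207. The 44 poly(A)-binding and mRNA-binding proteins held 1996 reads, of which Ncl held 957, and the 23 regulators of translation factors held 342. Only Eif4g2, Ncl, Eif1 and Paip2 passed the filter on low counts, and 0 of these 4 were called in any pair by the quasi-likelihood test of edgeR (0 also at an unadjusted p under 0.05). Their median log2 fold change was 0.36 for MG against AG, 0.04 for MG against GC and -0.26 for AG against GC.

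Eif4g2, an eIF4G-like scaffold that lacks the cap-binding part, had a log2 fold change of 0.63 (SE 0.56, adjusted p = 0.686 in edgeR) for MG against AG, -0.07 (SE 0.58, adjusted p = 0.994) for MG against GC and -0.70 (SE 0.58, adjusted p = 0.625) for AG against GC. Ncl, the gene of nucleolin, stood at 0.40 (SE 0.48, adjusted p = 0.777 in edgeR), 0.28 (SE 0.50, adjusted p = 0.994) and -0.12 (SE 0.50, adjusted p = 0.902) in the same order. Eif1, whose product guards start codon choice, stood at 0.32, -0.05 and -0.37, and Paip2, an inhibitor of PABPC1, at 0.29, 0.13 and -0.16, all within 1 SE of 0. The level of Paip2 ranged from 0 to 63.2 TMM-normalized CPM in AG, 16.05 to 64.9 in MG and 10.03 to 58.4 in GC, without the excess in AG seen for Pabpc1.

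To describe which genes varied most like each of the 7, all tested genes were ranked by the mean absolute difference in centred log2 TMM-normalized CPM over the 17 libraries. The nearest to Pabpc1 were Mkrn1, a ubiquitin ligase gene (0.31), Dcaf12, an adaptor of another ubiquitin ligase (0.34), and Polr2m (0.35). The nearest to Eif4a2 were the snoRNA host transcript Snhg12 (0.34), the microtubule polymerase gene Ckap5 (0.39) and the spliceosome gene Snrpb (0.43). The nearest to Eif4a1 were the ribosomal protein gene Rps3 (0.35), Gm17300 (0.38) and Eif4g2 (0.42). Ybx1 was nearest to Smap1 (0.41), Lyz2 (0.44) and Lars2 (0.44). Eef1a1 was nearest to the ferritin gene Ftl1 (0.34), Tpt1 (0.35) and the lysozyme gene Lyz2 (0.37), and Eef2 to Eef1a1 (0.41), Tpt1 (0.45) and Lars2 (0.46). Tpt1 was nearest to Nop56, Sdpr and Lyz2 (0.31, 0.32 and 0.33). The median distance of the tested genes was between 0.70 for Tpt1 and 1.04 for Eif4a1.

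Among the 20 nearest genes of each member, those of the 2 helicases differed from the rest in what they contain. A snoRNA gene lay inside 13 of the 19 annotated nearest genes of Eif4a2 and 17 of 19 for Eif4a1, compared with 47 of the 265 annotated tested genes, or 17.7%. The numbers were 0 of 18 for Pabpc1, 2 of 19 each for Ybx1, Eef1a1 and Tpt1, and 3 of 20 for Eef2. Eif4a1 was itself among the 20 nearest of Eif4a2 and the reverse, Ybx1, Eef1a1, Eef2 and Tpt1 were for the most part near each other, and Pabpc1 had no other member among its 20 nearest. Genes near each other share libraries and scaling, and the count of hosts is a description made after the values had been seen. Whether reads of the snoRNAs in Eif4a2 and Eif4a1 contributed to their counts was not tested, since the files hold no position of a read within a gene.

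**Figure D5:**
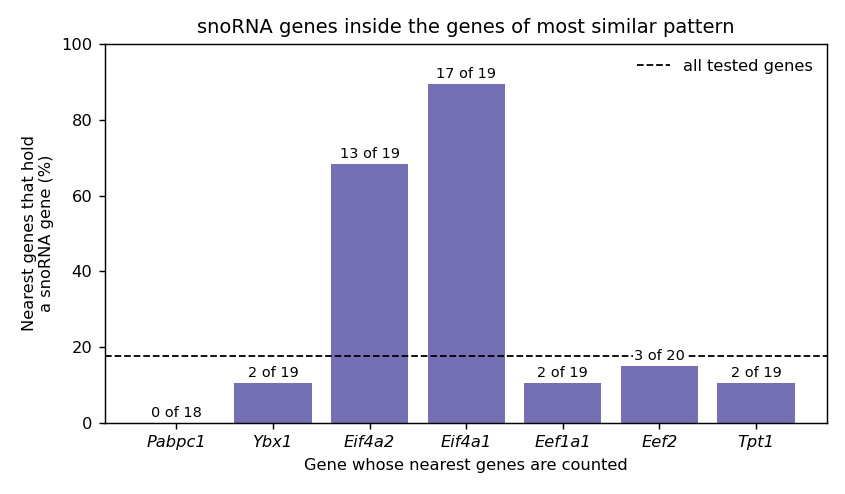
Share of the 20 nearest genes of each of the 7 genes that hold a snoRNA gene on the same strand (%, vertical axis; numbers over the bars are hosts of annotated nearest genes), with the share among all tested genes, 17.7%, as a dashed line. Eif4a2 and Eif4a1 stand above the line at 13 of 19 and 17 of 19, and the other 5 genes lie below it.

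Reads of 36 bases can also be shared with related genes. Of the 36-base words of the longest coding transcript of Eef1a1, 69.6% occurred in at least 1 of 27 other annotated genes. For Eif4a1, Tpt1 and Ybx1 the shares were 67.2%, 42.7% and 35.7%, each with 8 other genes. The shares were 29.6% for Pabpc1 with 6 other genes, 17.5% for Eef2 with 5 and 15.2% for Eif4a2 with 2. In the count column, those of these other genes that are in the files were at 0 in all libraries, except 1 read for Tpt1-ps4. The RPKM column was above 0 for some of them, such as Tpt1-ps3 in 6 libraries, and their summed RPKM reached 1.10 for Tpt1 and at most 0.54 for the other members, beside median levels of 4.07 for Tpt1 and 1.46 for Ybx1. How reads that match several genes were counted is not given in the sources used here. Of 20 paralogs and pseudogenes named after the families of the 7, 6 had reads in the count column, 124 in all. Ybx3 had 77 of them, Eef1a2 19, Pabpc4 14, Eif4a3 8, Ybx2 5 and Tpt1-ps4 1.

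Markers of further cell types were read in the same libraries. Leukocyte markers, 9 of 10 with reads and Cd3e at 0, summed to between 117 and 316 TMM-normalized CPM over all libraries. Skeletal muscle markers, 9 of 10 with reads and Mylpf at 0, summed to at most 245. Liver markers, 13 of 13 with reads, had medians of 112 in AG, 276 in MG and 104 in GC, with the highest libraries at 3263, 4076 and 150. Their part in the levels of the 7 genes was not tested.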

How the data were processed

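Plasma RNA of 17 mice was sequenced by the authors as paired reads of 36 bases from small RNA libraries, and CLC Genomics Workbench was used to map them to mm10 and count them per gene. The deposited count column holds total reads per gene without normalization. RPKM values, deposited beside them, had been adjusted by the authors for gene length and mapped reads, and the deposited TPM values entered no result. The reads of Tpt1 behind 1 unit of its RPKM ranged from 3.80 to 23.3 between libraries, a 6.14-fold range beside 3.28-fold for the count totals, so RPKM was used to order genes within libraries and compared between groups only as an alternative. Trimming, strand setting and the treatment of reads with several matches are not given in the sources used here.

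Groups were taken from the labels. Counts of 272 genes passing filterByExpr were TMM-scaled and fitted over all 17 libraries with the quasi-likelihood test of edgeR 4.0.16 in R 4.3.3, with Benjamini-Hochberg adjustment over all tested genes and a threshold of 0.05. The common biological coefficient of variation was 0.574. SE is the unshrunken log2 fold change divided by the root of F. The Eef1a1 to Eef2 ratio, with 0.5 reads added, was tested by exact permutation in scipy 1.17.1. Alternatives were no TMM, RLE scaling, all 6270 genes with at least 5 reads, edgeR's exact test, DESeq2 1.42.0, limma 3.58.1 on log2(RPKM + 1), only the groups compared, a replicate block, the dominant genes left out, and each replicate left out. The scripts were tested on simulated counts. No 2 libraries agreed within sampling noise, with a chi-square of at least 5.46 per degree of freedom for every pair. The p-values measure the spread between libraries of 1 mouse each, and no batch is given in the labels.

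The members and lists were chosen with earlier results of these data known. The named genes are the 7 members, the tested translation genes, the 3 genes nearest to each member, snoRNA and miRNA genes inside members, named paralogs and pseudogenes, and genes above 5% of counts, with Cd3e and Mylpf named as the markers at 0 reads. Positions and sequences are from GENCODE M21 on GRCm38, and a snoRNA gene was assigned to a gene when it lay inside it on the same strand. The astronaut samples were left out.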

Additional observations from a re-analysis of the deposited data

Results flagged for a closer look

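Of 24 sets of values, the levels of the 7 genes and their Eef1a1 to Eef2 ratio in each group, 5 held a library far from the others by Dixon's criterion, where chance gives about 1.2. In GC replicate 4 the TMM-normalized CPM of Eif4a2 was 5337 with the next GC library at 1481, that of Eif4a1 was 482 with the next at 161, and that of Eef2 was 271 with the next at 102. The TMM factor of this library was 0.525, against 1.32 to 1.74 for the other GC libraries, and without TMM scaling it was the highest GC library for Eif4a2 (2727 CPM, next 2398) and Eif4a1 (246, next 203) by less, and not the highest for Eef2 (138, below 165). In MG replicate 4 the level of Eef1a1 was 657 with the next MG library at 358, and that of Eef2 was 203 with the next at 91.3. Without TMM scaling these were 693 with the next at 607, and 214 with the next at 164. This library had reads for the most genes of all libraries, 4907.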

How the results depend on the processing

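Without TMM scaling the calls at an adjusted p under 0.05 rose for MG against AG to 2 of the 7 genes (Eef1a1 and the picked gene Eif4a2), 2 other translation genes and 58 of all genes (58 higher in MG), and for AG against GC to 1 of the 7 (again Eif4a2, whose calls follow from its choice and are no test) and 9 of all (1 higher in AG), from 4 of 4 higher. The log2 fold changes that turned without TMM were 0.035 (Eif4a2), 0.21 (Eif4a1) and 0.13 (Eef2) for MG against GC, and -0.10 (Pabpc1) and -0.042 (Ybx1) for AG against GC. The study's cut-offs for p and fold change were also applied to the quasi-likelihood fit of 272 genes. For MG against AG, MG against GC and AG against GC, 2, 1 and 2 of the 7 genes then passed. Of all tested genes 36, 12 and 32 passed. The study had used these cut-offs with another test, the empirical analysis of CLC Genomics Workbench. Its genes were not limited to these 272, and it listed more for MG against AG and MG against GC, so the counts are not directly comparable. In the fit of all genes with at least 5 reads 6, 10 and 0 genes were called, and Tpt1 was -0.0049 for MG against GC. The exact test called 5 and 7 genes for MG against AG and AG against GC, DESeq2 9 and 8 (1 of the 7, a picked gene), and the fits of only 2 groups 1 and 1. limma called 0 for AG against GC and turned Eef1a1 (-0.10) and Tpt1 (-0.24) for MG against GC and Pabpc1 (-0.010) for AG against GC, and lowered Ybx1 to 0.30 and 0.03 for MG and AG against GC. Without the dominant genes Tpt1 was 0.0054 for AG against GC. The Eef1a1 to Eef2 log2 ratio for AG against GC was -0.017 with 1 read added and -0.15 with the replicate block. The cause of these shifts was not tested, and the counts of the 7 and of the other translation genes stayed at 0 in the settings not named.

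The labels give no pairing by replicate number. The correlations of same-numbered deviations ran from -0.47 to 0.59, and for replicate 1 they were 0.46, 0.59 and 0.48. They cannot decide whether the numbers pair the samples, since libraries of different numbers were not compared. With the replicate block 3 genes were called for MG against AG, none of them among the 7.

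Leaving out each replicate gave 0 called of the 7 genes and of the other translation genes throughout, and 0 to 10 of all genes for MG against AG (10 without MG replicate 4), 0 to 1 for MG against GC and 0 to 6 for AG against GC. The Eef1a1 to Eef2 log2 ratio ran from -0.32 to 0.22 for AG against GC. For MG against AG Eif4a1 ran from 0.016 to 0.82, Eef1a1 from 0.23 to 0.76, Ybx1 from -0.057 to 0.20 and Eef2 from -0.21 to 0.47. For MG against GC Eif4a2 ran from -0.59 to 0.33, Eif4a1 from -0.57 to 0.72, Eef2 from -0.49 to 0.34 and Tpt1 from -0.037 to 0.18. For AG against GC Eif4a1 ran from -0.94 to 0.25, Eef1a1 from -0.43 to 0.016, Eef2 from -0.65 to 0.23 and Tpt1 from -0.15 to 0.075. Ybx1, Eef2 and Eif4a1 rest on the fewest reads, and 114 of the 118 other translation genes could not be tested.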

Other observations

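The group of tested genes that hold a snoRNA gene was looked at after the values of Eif4a2 had been seen, and its values are given without a test. The median log2 fold change of 47 such genes, Eif4a2 among them, was 0.70 for MG against AG, with 41 of 47 higher in MG, beside 0.09 and 131 of 218 for genes without one. For AG against GC it was -0.72, with 3 of 47 higher in AG, beside -0.13 and 92 of 218. For MG against GC it was -0.07 beside 0.01. Leaving out each library in turn, the median of the hosts ran from 0.18 to 0.92 for MG against AG, from -0.93 to -0.04 for AG against GC and from -0.57 to 0.61 for MG against GC, so the size, and for the last pair the sign, rested on single libraries.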
